A study of Mus musculus with 6 samples.

Results

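Gene-desert peaks were ATAC-seq peaks whose summit lay over 100 kb from the body of every protein-coding gene of the mouse genome (build mm10, GRCm38). They were taken from the authors' peak lists for 2 tissues of the mouse embryo. Of 44018 peaks in the list of the posterior second heart field (pSHF), 3636 were desert peaks (8.26%), and of 49267 peaks in the list of the atria (HT), 3860 were (7.83%), which gave 7496 of 93285 peaks in all. Overlapping peaks of both lists were joined into 6132 sites, of which 2296 were called in the pSHF list only, 2557 in the HT list only and 1279 in both. The choice of members used position alone and no measured value.

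Both groups were wild-type (WT) CD1 embryos, an outbred strain, at embryonic day 10, with 3 samples of microdissected pSHF and 3 of atria. Tissue from several embryos was pooled and dissociated before transposition, so no sample stands for 1 embryo. Each tissue has 1 deposited peak list, which carries no value per sample. No difference between the tissues could therefore be set against the spread between replicates, no test between tissues was possible, and none is reported.

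ATAC-seq marks open chromatin, because the Tn5 transposase inserts sequencing adapters where DNA is not packed in nucleosomes. The pSHF is the progenitor field behind the heart that adds cells to its venous pole and to the atrial septum, and the atria hold differentiated muscle together with endocardium, epicardium and blood. Gene deserts are long stretches without protein-coding genes, often next to genes for developmental transcription factors, and many hold enhancers that act on a gene far away. They also hold genes for long non-coding RNAs and microRNAs.

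Desert peaks that lay on the promoter of a non-coding gene are shown first, since there the sequence under the peak is known. RefSeq (GRCm38.p6) gave a promoter window, 250 bases before to 50 bases after the start, for 1748 non-coding genes in deserts. Of these windows, 91 held a desert summit, 35 of a shared site, 29 of a pSHF-restricted peak and 27 of an HT-restricted peak. Each is printed on the strand of its gene, and capitals mark matches on either strand to the 12 motifs named in the next paragraph. Firre (chrX:50635272-50635571, minus strand) and Gm3716 (chr5:64610650-64610949, minus strand) stand for shared promoters of the non-coding genes at the runs with the most desert sites. The Gm3716 promoter lies in its run, and the Firre promoter lies outside its run. 5330434G04Rik (chrX:105391705-105392004, minus strand) stands for promoters with a strong pSHF-restricted peak and Gm31828 (chr4:93481346-93481645, minus strand) for those with a strong HT-restricted one.
Firre: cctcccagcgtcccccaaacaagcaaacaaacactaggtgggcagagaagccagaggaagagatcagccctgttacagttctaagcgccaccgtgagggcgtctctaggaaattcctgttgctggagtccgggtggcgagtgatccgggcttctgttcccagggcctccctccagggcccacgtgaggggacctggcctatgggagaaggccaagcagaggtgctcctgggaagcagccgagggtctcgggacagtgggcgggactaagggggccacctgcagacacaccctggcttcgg
Gm3716: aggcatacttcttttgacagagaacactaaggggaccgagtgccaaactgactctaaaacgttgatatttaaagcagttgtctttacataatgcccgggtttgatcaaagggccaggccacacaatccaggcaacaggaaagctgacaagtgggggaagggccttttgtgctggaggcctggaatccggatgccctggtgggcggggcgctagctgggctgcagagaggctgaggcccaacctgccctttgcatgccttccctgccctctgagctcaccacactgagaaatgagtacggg
5330434G04Rik: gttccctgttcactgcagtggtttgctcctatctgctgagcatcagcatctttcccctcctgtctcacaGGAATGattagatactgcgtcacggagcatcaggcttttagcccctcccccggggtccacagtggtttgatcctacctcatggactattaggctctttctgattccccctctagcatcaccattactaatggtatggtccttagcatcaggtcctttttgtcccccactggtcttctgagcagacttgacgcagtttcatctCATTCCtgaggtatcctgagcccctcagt
Gm31828: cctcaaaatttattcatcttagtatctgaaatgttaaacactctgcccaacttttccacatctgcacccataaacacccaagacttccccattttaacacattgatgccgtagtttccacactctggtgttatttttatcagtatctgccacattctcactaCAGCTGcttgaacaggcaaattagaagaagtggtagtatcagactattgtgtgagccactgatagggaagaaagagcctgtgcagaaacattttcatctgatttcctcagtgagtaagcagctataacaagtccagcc

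At the Firre promoter the authors' fold enrichment over background was 10.3 in the pSHF list and 13.7 in the HT list, and at the Gm3716 promoter it was 9.05 and 14.7. Neither window held any of the motifs. The 5330434G04Rik promoter had a pSHF-restricted peak of fold 8.18 and 2 matches to the TEAD motif. The Gm31828 promoter had an HT-restricted peak of fold 17.0, the third highest of all HT-restricted desert peaks, and 1 match to the E-box motif. The motifs searched on both strands were GLI (TGGGTGGTC), forkhead (TGTTTAC), MEF2 (CTAAAAATA), the GATA factor motif (AGATAA), TEAD (GGAATG), E-box (CAGCTG), NKX2 (CACTTGA), T-box (AGGTGTGA), homeobox (TAATTA), AP-1 (TGANTCA), CTCF (a core of 14 letters) and HOX-PBX (TGATTTAT), and matches of different motifs could overlap.

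The TEAD and E-box motifs, picked out after their values were seen, were held more often by desert promoters with a summit than by those without. The TEAD letters were in 28 of 91 such promoters (30.8%), against 16.0% of the 1657 desert promoters without a summit and 14.6% of all 26794 promoters. They were in 12 of the 29 with a pSHF-restricted summit (41.4%), 9 of the 27 with an HT-restricted one (33.3%) and 7 of the 35 shared (20%). The E-box letters were in 24 of 91 (26.4%), against 15.9% without a summit and 16.2% of all promoters. For the E-box the share was 37.0% with an HT-restricted summit, 31.0% with a pSHF-restricted one and 14.3% with a shared one. The AP-1 letters were in 2 of the 91 (2.20%), against 10.9% without a summit, and the GLI letters in 0, against 0.362%. Base composition differed as well. The median GC content was 51.0% with a summit and 44.7% without, and 52.7% over all promoters. It was 54.0% with a shared summit, 52.3% with a pSHF-restricted one and 48.3% with an HT-restricted one. The part of base composition in the motif shares was not tested. A match is a description of the letters, not a site of binding.

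MicroRNA genes were the other known sequences of the deserts. The deserts held 119 miRNA genes, of which 36 had a desert peak within 10 kb, 12 with a pSHF-restricted peak, 9 with an HT-restricted one and 20 with a shared one. Neighbouring miRNA genes could count the same peak, as those from Mir377 to Mir3072 did with 1 shared site between Rtl1 and Dio3. The same share was not taken for other desert sequence, so these counts have no base. The clusters that follow, chosen after their values were seen, hold related members of the let-7, miR-99/100 and miR-125 families in a pair of deserts with unlike peak counts. Mir100 and Mir125b-1 lie in the Mir100hg host gene on chromosome 9, and Mir99a, Mirlet7c-1 and Mir125b-2 lie at the Mir99ahg host gene on chromosome 16. Capitals mark the seed, bases 2 to 8, which directs target recognition.
mmu-miR-100-5p: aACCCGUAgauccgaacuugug
mmu-miR-99a-5p: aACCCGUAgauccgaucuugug
mmu-let-7c-5p: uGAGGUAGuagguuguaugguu
mmu-miR-125b-5p: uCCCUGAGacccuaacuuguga

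mmu-miR-100-5p and mmu-miR-99a-5p have the same seed, ACCCGUA, and mmu-miR-125b-5p is made from both Mir125b-1 and Mir125b-2. Coordinates of a desert, here and below, are those of the whole gap, and its counts cover only the part over 100 kb from both genes. The desert with Mir100hg, between Ubash3b and Gm40514 (chr9:41161693-41906022), held 9 pSHF-restricted peaks, 1 HT-restricted peak and 5 shared sites. Its strongest pSHF-restricted peak had fold 8.38 (chr9:41273213-41273355), and its 1 HT-restricted peak had fold 3.21. A pair of pSHF-restricted peaks lay at -0.938 and -1.219 kb from Mir125b-1, where negative distances are before the gene (fold 4.15 and 3.77), and a shared peak lay beside them (fold 5.58 in pSHF and 4.93 in HT). The excess of pSHF-restricted peaks was 8, and it was 4 at the strict limit, where only peaks with −log10 q values of 5 or more were kept in both lists. That limit kept 26.3% of pSHF and 48.0% of HT desert peaks, so it lowers pSHF counts more. A shared site that keeps its peak in 1 list only is counted as restricted at that limit.

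The desert with Mir99ahg, between Usp25 and Cxadr (chr16:77116784-78301225), was balanced instead, with 6 restricted peaks of each kind. The authors' lists shared 10 pSHF and 11 HT peaks there, the strongest pSHF one at fold 10.0 (fold 6.44 in HT). An HT-restricted peak of fold 3.84 lay at -4.948 kb from Mir99a, and a shared peak lay at -1.811 kb from Mir125b-2, with fold 7.11 in pSHF and 5.48 in HT. The related clusters thus lay in deserts of unlike balance, which was not tested.

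The tissue labels were checked against marker genes within 10 kb. The 9 heart muscle genes had 40 HT peaks, 27 of them restricted, and 15 pSHF peaks, 2 of them restricted. The 8 second heart field genes had 25 pSHF peaks, 13 of them restricted, and 12 HT peaks, 1 of them restricted. Over the whole lists 45.5% of HT and 34.4% of pSHF peaks were restricted. Of the heart muscle genes Tnnt2 went the other way, with 4 pSHF and 2 HT peaks. Markers of cells that a dissected piece can also hold had peaks in both lists. The 4 red cell genes had 22 HT and 6 pSHF peaks, the 4 foregut endoderm genes 7 pSHF and 5 HT peaks, and the 4 somite genes 7 pSHF and 5 HT peaks. Single genes differed, as Foxa2 of the foregut had 2 pSHF and 3 HT peaks. Pax1 of the somite had 2 in each list, and Uncx had none. The part of these cells in the desert counts was not tested. In such bulk tissue, fewer cells with an open site and a weaker signal per cell cannot be told apart.

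Most desert peaks were called in 1 tissue only. A peak was restricted where it had no overlap of 1 bp with the other list, and shared otherwise. In the pSHF list 2296 of 3636 desert peaks were restricted, or 63.1% (exact Clopper-Pearson 95% interval 61.6 to 64.7), beside 34.4% of the whole list and 31.8% of peaks outside deserts. In the HT list 2557 of 3860 were restricted, or 66.2% (64.7 to 67.7), beside 45.5% of the whole list and 43.7% outside deserts. In a comparison chosen after seeing the data, desert peaks with −log10 q values of 5 or more were set against the whole other list. This gave restricted shares of 43.6% (40.4 to 46.8) in pSHF and 58.4% in HT, so that most strong pSHF desert peaks were shared. Intervals cover counting error over peaks, which are not replicates of a tissue. Among the other positions the share was lowest within 1 kb of a gene end, at 11.3% in pSHF and 13.9% in HT. It was 44.8% and 58.9% inside genes, and 44.4% and 55.5% between genes within 100 kb.

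Desert peaks had lower folds than the lists as a whole, and peaks of low fold were more often restricted at every position. The median fold was 4.31 for pSHF-restricted and 4.91 for shared pSHF desert peaks, with a median of 4.85 for the whole list. In HT it was 4.93 for restricted and 5.48 for shared desert peaks, with 5.49 for the whole list. At the summit of a desert peak a median of 8 reads overlapped in the pSHF list and 9 in the HT list, beside 11 and 12 over all peaks, and the lowest number was 5. Peaks inside genes and between genes within 100 kb were about as weak, with median folds of 4.59 and 4.69 in pSHF and 5.15 and 5.26 in HT, beside 4.63 and 4.99 for all desert peaks. A restricted peak is one not called in the other list, not one shown to be closed there.

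The share was therefore compared within 4 bins of each list by fold, cut at 4.07, 4.85 and 6.46 in pSHF and at 4.39, 5.49 and 8.15 in HT. In the bin of lowest fold, 75.3% of desert peaks were restricted in both lists. In the bin of highest fold 115 of 389 pSHF desert peaks were restricted, or 29.6% (25.1 to 34.4), where peaks between genes within 100 kb had 10.7% (9.09 to 12.5) and peaks inside genes 8.92%. In HT it was 254 of 529, or 48.0% (43.7 to 52.4), where the same positions had 27.9% and 29.3%. Gene ends had 0.288% and 0.822%. The deserts thus had the highest restricted share of the 4 positions in the top bin of both lists, by intervals that did not overlap. That bin has no upper bound, and folds within it were not matched between positions.

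**Figure D1:**
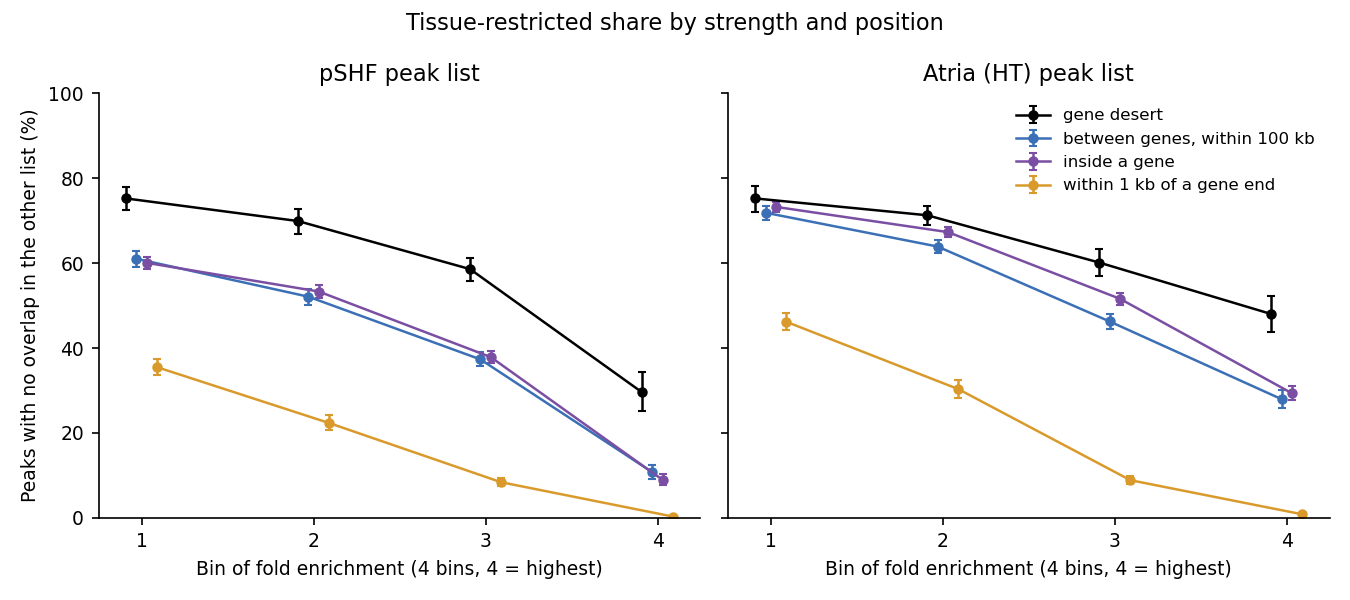
Share of peaks with no overlap in the other list (percent, vertical axis) by bin of fold enrichment within the list (4 bins, 1 lowest, 4 highest), for 4 positions; bars are exact 95% intervals over peaks. The desert line falls from 75.3% to 29.6% in pSHF and from 75.3% to 48.0% in HT and is the top line in both panels, though in the lowest HT bin its interval overlaps those of the other distal positions.

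The share was also taken on both sides of the 100 kb threshold. Just inside it, at 90 to 100 kb, 53.1% of 322 pSHF and 53.0% of 317 HT peaks were restricted. Just beyond it, at 100 to 110 kb, the shares were 59.9% of 279 and 59.6% of 275. From 100 to 200 kb they were 60.7% in pSHF and 62.5% in HT, from 200 to 500 kb 65.9% and 68.1%, and from 500 to 1000 kb 64.8% and 72.6%. Beyond 1000 kb the HT share was 74.8% of 147 peaks and the pSHF share 60.0% of 95. The HT share thus went up with distance in every step, and the pSHF share went up and then down.

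Shared desert sites mostly had the higher fold in the HT list, as shared pairs did at every position. Over the 1340 pairs of overlapping peaks the median log2 ratio of fold, pSHF over HT, was -0.21 with an SD over pairs of 0.55, and the pSHF peak had the higher fold in 449 pairs (33.5%). The ratio was under -1 in 127 pairs and over 1 in 17. The same median was -0.36 at gene ends, -0.27 between genes within 100 kb and -0.28 inside genes. The lower pSHF fold was thus found at all 4 positions and was least marked in deserts. The lists were called separately with unknown read totals, so the scales of their folds were not matched. The summits of a pair lay a median of 71 bp apart.

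The pSHF had a larger part of the restricted peaks in deserts than over the rest of the lists, close to its part at gene ends. Of all restricted desert peaks 47.3% (45.9 to 48.7) were pSHF-restricted, beside 39.3% outside deserts, 46.6% at gene ends and 37.4% inside genes. At the strict limit the values were 28.1% (26.1 to 30.1) and 22.2%. The deserts were thus above the rest at that limit too, while the balance moved to the atria in both. With non-coding genes also counted as genes the values were 41.7% (38.2 to 45.3) and 40.3%, and the interval no longer lay above the rest.

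Desert sites lay unevenly over the genome. There were 1568 deserts that could hold a peak, 1537 between neighbouring genes and 31 at chromosome ends, and 495 of them (31.6%) held none. Only 197 deserts (12.6%) held 50% of the sites. The most in 1 desert was 45, and 193 deserts with at least 10 sites held 3034 sites in all. Of these 193, 189 had restricted peaks of both kinds, beside 601 of the 1073 deserts with a peak, and 179 had a shared site. The choice by number of sites favours deserts with both kinds, so no more was read from these counts. Sites were denser in short deserts, with 19.8 sites per Mb where the length beyond 100 kb was at most 100 kb and 3.79 where it was over 2 Mb.

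**Figure D2:**
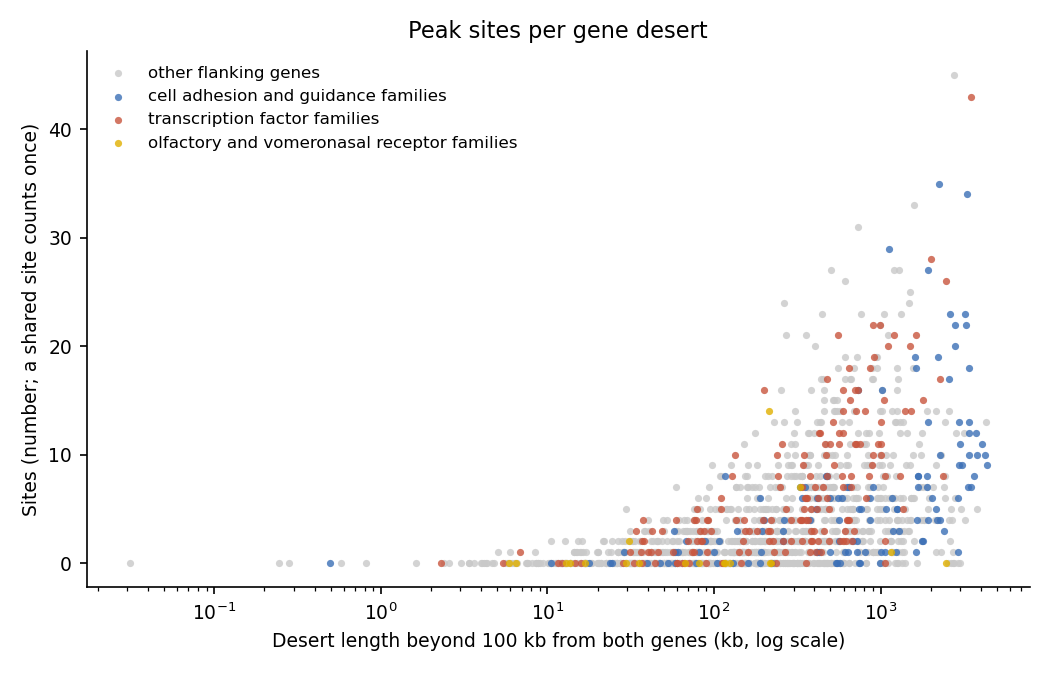
Number of peak sites per desert (vertical axis, a shared site counted once) against the desert's length beyond 100 kb from both flanking genes (kb, log scale), coloured by the family of a flanking gene. The highest point holds 45 sites, and many deserts with olfactory or vomeronasal receptor genes lie at 0.

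Deserts beside genes for transcription factors held more sites per Mb than deserts as a whole. These are the 177 deserts with a flanking gene of the factor families listed for this work, such as Sox, Tbx, Irx and Nr2f. They held 13.7 sites per Mb, beside 8.27 over all deserts, and 22 of them (12.4%) were empty, beside 31.6% of all. Deserts of all kinds with a length beyond 100 kb of 300 to 1000 kb held 11.1 sites per Mb, and 56 of these 438 were empty. The part of desert length in the values of the factor families was not tested. Of the restricted peaks in the deserts of factor families 500 were pSHF-restricted and 437 HT-restricted. This was a pSHF share of 53.4% (50.1 to 56.6) where all deserts had 47.3%. The 129 deserts beside genes of cell adhesion and guidance families, such as cadherins and semaphorins, held 5.05 sites per Mb, with 285 pSHF-restricted and 401 HT-restricted peaks, or 41.5% (37.8 to 45.3). Many of these deserts are long, and deserts of all kinds with a length beyond 100 kb of 1 to 2 Mb held 5.97 sites per Mb. Of the 24 deserts beside olfactory or vomeronasal receptor genes, 19 were empty (79.2%). The pSHF share at the strict limit was 35.5% for factor families and 20.9% for adhesion families, where all deserts had 28.1%.

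The 12 deserts with most sites held 27 to 45 each. The desert between Nmbr and Cited2 (chr10:14771459-17723227) had 45 sites, 23 HT-restricted and 11 pSHF-restricted. Cited2 encodes a CBP/p300 partner needed for septation of the heart and for left-right patterning. Its strongest HT-restricted peak had fold 11.5 (chr10:15738684-15738992), its strongest pSHF-restricted peak fold 5.39, and its strongest shared HT peak fold 14.3, where the pSHF partner had 4.31. The difference, pSHF minus HT, ran from -15 to -1 over the settings tried and did not change direction.

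Zeb2, a zinc-finger repressor of epithelial fate, and Acvr2a, an activin receptor, flank the desert with the next most sites (chr2:45117443-48814108). It held 43 sites, 25 pSHF-restricted and 13 HT-restricted, the largest count of pSHF-restricted peaks in 1 desert. Its strongest peak was shared, with fold 12.5 in pSHF and 8.39 in HT, and lay in the lncRNA gene Gm13481. The excess of 12 fell to 3 at the strict limit.

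The next deserts in this order had a mixed make-up. Between the adhesion receptor genes Adgrl2 and Adgrl4 (chr3:148989097-151437881) there were 12 pSHF-restricted and 15 HT-restricted peaks. Between Slc10a2 and the ephrin gene Efnb2 (chr8:5105288-8617234) there were 16 and 11. Between the proto-oncogene Myc and Gsdmc (chr15:61990362-63775970) there were 14 and 15, and between Cd83 and Jarid2, which encodes a subunit of the Polycomb repressive complex (chr13:43803134-44730773), 15 and 13. The difference, pSHF minus HT, changed sign with a setting for all of these but Adgrl2 to Adgrl4, where it ran from -8 to -2. At the strict limit it was -4 for Slc10a2 to Efnb2 and -4 for Cd83 to Jarid2.

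The other 6 of the 12 held restricted peaks of both kinds as well. Cdh11 and Cdh5, the cadherin of endothelial junctions, flank 11 pSHF-restricted and 15 HT-restricted peaks (chr8:102785494-104101612). Bcl11a to Fancl had 11 and 7, Lcorl to the guidance ligand gene Slit2 had 15 and 9, Kif2a to Zswim6 had 9 and 7, Zfp608 to Gramd3 had 11 and 10, and Gm44812 to Mctp2 had 8 and 9. For Bcl11a to Fancl, Lcorl to Slit2, Kif2a to Zswim6 and Zfp608 to Gramd3 the differences at the strict limit were -6, -2, -4 and -1.

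**Figure D3:**
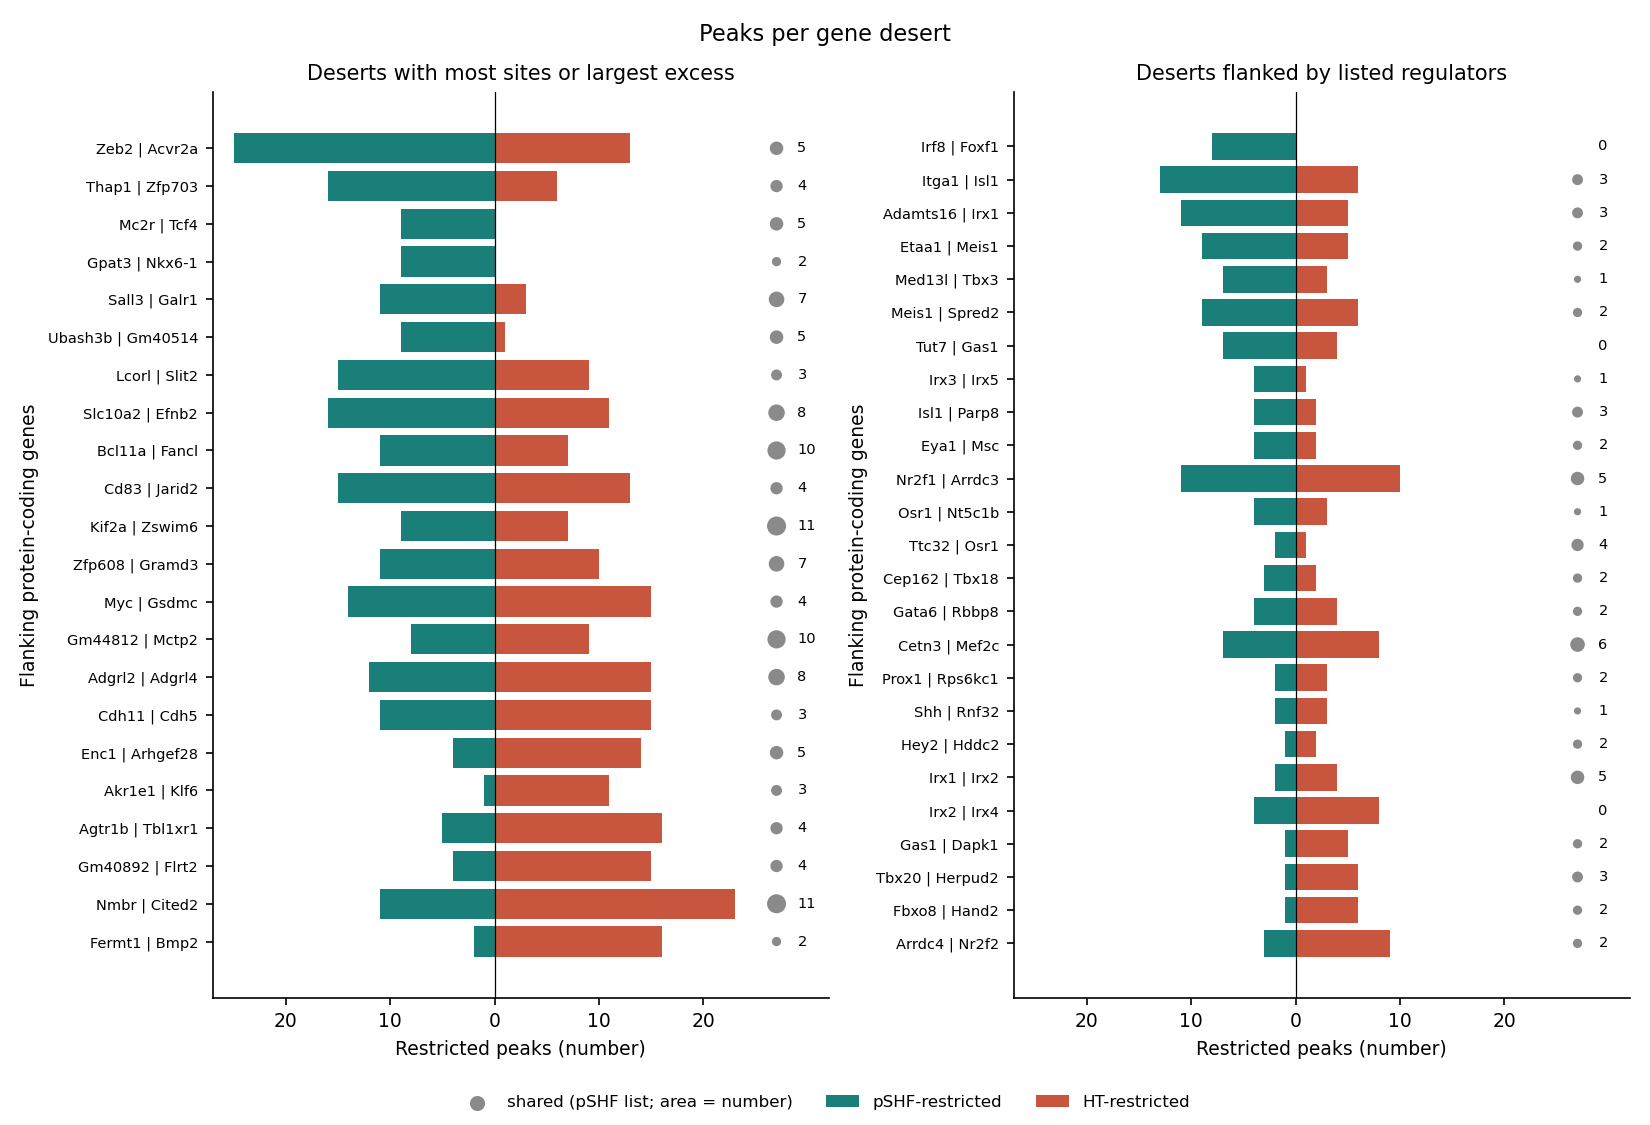
Number of restricted peaks per named desert, pSHF-restricted to the left and HT-restricted to the right of 0; the grey dot's area and the number beside it give the shared pSHF peaks. Zeb2 to Acvr2a reaches 25 on the pSHF side, Nmbr to Cited2 reaches 23 on the HT side, and Irf8 to Foxf1, Mc2r to Tcf4 and Gpat3 to Nkx6-1 have no bar on the HT side.

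Beside Zeb2 to Acvr2a and the Mir100hg desert, 4 more deserts had the largest excess of pSHF-restricted peaks. The desert between Irf8 and Foxf1, described with the second heart field genes, had the same excess of 8 as 2 of these deserts, and ties went to the deserts with more sites. Thap1 to Zfp703 (chr8:26164152-26977335) had 16 pSHF-restricted and 6 HT-restricted peaks, and its excess of 10 was 7 at the strict limit. Zfp703 encodes a zinc-finger repressor. Gpat3 to Nkx6-1 (chr5:100899103-101659183), by a homeobox gene of neural tube and pancreas, had 9 pSHF-restricted, no HT-restricted and 2 shared sites. Its strongest pSHF-restricted peak had fold 5.82, and its difference of 9 was 3 at that limit.

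Mc2r to Tcf4 (chr18:68429321-69343428) also had 9 pSHF-restricted peaks and no HT-restricted one, with 5 shared sites. Tcf4 encodes a basic helix-loop-helix E protein. Its restricted peaks were weak, with a highest fold of 5.60, and the difference was 0 at the strict limit. Sall3 to Galr1, by a spalt-type zinc-finger gene, held 11 peaks restricted to pSHF and 3 restricted to HT with 7 shared sites, and there too the difference was 0 at that limit. Of these 6 deserts with a pSHF excess, 4 had a flanking gene of the factor families, as did 177 of all 1568 deserts and 48 of the 193 deserts with at least 10 sites.

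The largest excess of HT-restricted peaks was in the desert between Fermt1 and Bmp2 (chr2:132946037-133552158), with 16 HT-restricted, 2 pSHF-restricted and 2 shared sites, or 49.2 sites per Mb. Bmp2 encodes a BMP ligand of the atrioventricular canal that sets up valve formation. The strongest HT-restricted peak (chr2:133099158-133099428) had fold 9.90 and lay 453 kb from Bmp2. The strongest shared site had fold 9.53 in HT and 6.49 in pSHF and lay 122 kb from Bmp2. The excess was 14, and it was 7 at the strict limit.

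Of the 6 deserts with an HT excess, 1 had a flanking gene of the factor families, beside the same 48 of 193. Agtr1b to Tbl1xr1 had 16 HT-restricted and 5 pSHF-restricted peaks. Gm40892 to Flrt2, the gene of an adhesion protein of the epicardium, had 15 and 4, with an HT-restricted peak of fold 14.3 at 596 kb from Flrt2 (chr12:95095717-95096043). Enc1 to Arhgef28 had 14 and 4, and Akr1e1 to Klf6, which encodes a Krüppel-like factor, had 11 and 1. The differences, pSHF minus HT, at the strict limit were -10, -8, -3 and -5. All 6 HT-rich deserts had more HT-restricted peaks at that limit. The limit moved the balance to the atria over all deserts too, with 576 pSHF-restricted and 1475 HT-restricted peaks left.

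Genes of the second heart field were taken as a list of 23, of which 13 flank 20 deserts with 194 sites. These deserts held 90 pSHF-restricted and 64 HT-restricted peaks, a pSHF share of 58.4% (50.2 to 66.3) where all deserts had 47.3%. More pSHF-restricted peaks were found in 13 deserts and more HT-restricted ones in 5, with a median difference of 1 beside 0 over all deserts. With both lists at the strict limit there were 28 and 42, or 40% (28.5 to 52.4) where all deserts had 28.1%. Lists of other cell types lay on the same side. The 7 deserts by foregut endoderm genes held 27 peaks called in pSHF only and 14 called in HT only (65.9%), and the 4 by somite genes 13 and 6. At that limit these counts were 9 and 5, and 2 and 3, beside the same 28.1%. The part of these cells in the count was not tested.

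Isl1, the LIM homeobox gene that marks second heart field progenitors, has a desert on both sides. The one between Itga1 and Isl1 (chr13:115101965-116298269) held 13 pSHF-restricted and 6 HT-restricted peaks and 3 shared sites. Of these, 5 sites lay in 1 run of 17.5 kb, 3 of them pSHF-restricted. The folds of the pSHF-restricted peaks ran from 3.23 to 6.46, and the highest HT value was at the shared site nearest Isl1, at 111 kb, with fold 11.8 in HT and 4.85 in pSHF. The one between Isl1 and Parp8 (chr13:116309689-116850841) held 4 pSHF-restricted and 2 HT-restricted peaks and 3 shared sites.

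The strongest pSHF-restricted peak of the Isl1 to Parp8 desert had fold 9.79 and lay 180.0 kb from Isl1 (chr13:116489434-116489817). It was the fifth of all pSHF-restricted desert peaks. An HT-restricted peak of fold 8.59 lay close by, at 186 kb (chr13:116495560-116495918). A shared site at 134 kb had fold 8.40 in pSHF and 4.39 in HT. At the strict limit the differences were -2 for Itga1 to Isl1 and -2 for Isl1 to Parp8, so neither desert kept its larger pSHF count. The limit also recounts shared sites. The pSHF peak at the site of HT fold 11.8 had a −log10 q of 3.90, so this site became HT-restricted. With peaks at that limit set against the whole other list, the direction was opposite for Isl1 to Parp8 but not for Itga1 to Isl1.

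The desert between Irf8 and Foxf1 (chr8:120756695-121084385) held 8 peaks, all pSHF-restricted. Foxf1 encodes a forkhead factor of splanchnic mesoderm. The folds ran from 3.40 to 4.76, the strongest peak (chr8:120959479-120959627) lay 125 kb from Foxf1, and no peak was left at the strict limit. The gap of 328 kb is too short for a point over 200 kb from both genes, so the 200 kb setting could show nothing here. No HT peak, strong or weak, lay in the part of this gap over 100 kb from both genes.

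Other genes of the list had both kinds. Meis1, a homeobox cofactor of Hox proteins, had 9 pSHF-restricted and 5 HT-restricted peaks on its Etaa1 side and 9 and 6 on its Spred2 side, where 5 of the HT-restricted peaks formed 1 run of 14.5 kb (chr11:19645247-19659774). Osr1, a factor of atrial septum progenitors, had 2 and 1 on its Ttc32 side and 4 and 3 on its Nt5c1b side, and both differences were -1 at that limit. The Eya1 to Msc desert had 4 and 2, and the Cep162 to Tbx18 desert 3 and 2, and Tbx18 marks the sinus venosus. Osr1, Isl1 and Meis1 each flank a pair of these deserts, which are therefore not independent.

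The orphan receptor genes Nr2f1 and Nr2f2 lay by deserts with pSHF shares of restricted peaks of 52.4% (29.8 to 74.3) and 25% (5.49 to 57.2), whose intervals overlap. Nr2f1 to Arrdc3 had 11 pSHF-restricted and 10 HT-restricted peaks, with a pSHF-restricted peak of fold 10.4 at 673 kb from Nr2f1 (chr13:78871176-78871711), and its difference was -2 at the strict limit. Arrdc4 to Nr2f2, by the gene that specifies atrial identity, had 3 pSHF-restricted and 9 HT-restricted peaks, and its difference of -6 was -3 at that limit.

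**Figure D4:**
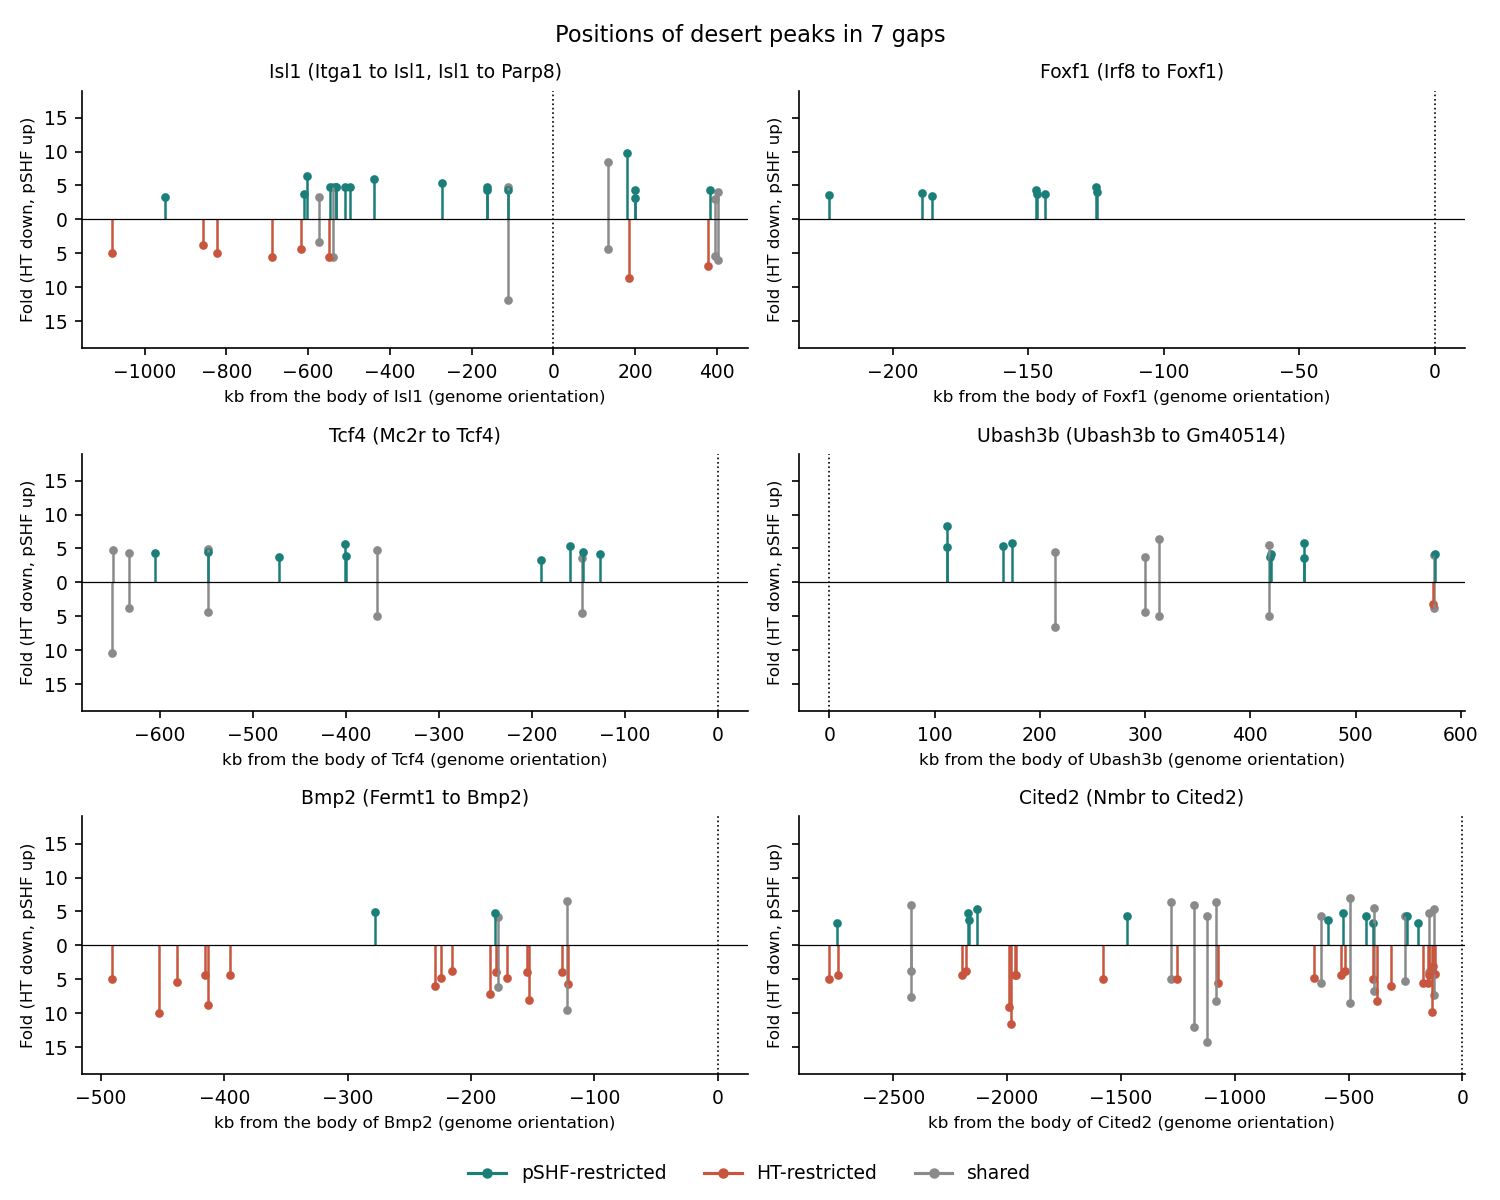
Fold enrichment of each desert peak (pSHF up, HT down) against distance in kb from the body of a flanking gene (dotted line at 0, genome orientation), for the deserts by Isl1, Foxf1, Tcf4, Ubash3b, Bmp2 and Cited2. All 8 peaks by Foxf1 point up, and 16 of the peaks by Bmp2 are HT-restricted and point down.

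Of 30 cardiac factor genes, 16 flank 18 deserts with 131 sites, 45 pSHF-restricted and 57 HT-restricted (44.1% pSHF, 34.3 to 54.3, where all deserts had 47.3%). More HT-restricted peaks were found in 10 deserts, more pSHF-restricted ones in 3. Tbx20, a T-box gene of heart muscle and endocardium, lay by a desert with 6 HT-restricted peaks, 1 pSHF-restricted peak and 3 shared sites, or 74.7 sites per Mb. Its strongest HT-restricted peak had fold 9.84 at 182 kb from Tbx20 (chr9:24956547-24956873). Fbxo8 to Hand2, by a basic helix-loop-helix gene of the heart, also had 6 and 1. Both differences were -1 at the strict limit.

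Mef2c, which encodes a MADS-box factor of muscle and of the second heart field, lay by a desert with strong peaks of each kind. Cetn3 to Mef2c had 7 pSHF-restricted and 8 HT-restricted peaks. The strongest pSHF-restricted peak had fold 12.1 (chr13:83046461-83047035) and lay 457 kb from Mef2c, and the strongest HT-restricted peak had fold 12.1 (chr13:82537170-82537498) and lay 967 kb from it. A shared site at 121 kb had fold 14.0 in HT and 4.31 in pSHF. This desert thus held high folds in each tissue at different places.

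The Iroquois homeobox genes, which pattern the chambers, flank 4 named deserts. Adamts16 to Irx1 had 11 pSHF-restricted and 5 HT-restricted peaks, Irx1 to Irx2 had 2 and 4, Irx2 to Irx4 had 4 and 8, and Irx3 to Irx5 had 4 and 1. Neighbouring deserts of 1 cluster thus had differences of opposite sign, although the difference for Adamts16 to Irx1 was -1 at the strict limit. The pSHF shares of Adamts16 to Irx1 and Irx1 to Irx2 were 68.8% (41.3 to 89.0) and 33.3% (4.33 to 77.7), with intervals that overlap. Med13l to Tbx3, by a T-box gene of the conduction system, had 7 and 3. Gata6 to Rbbp8 had 4 of each, Prox1 to Rps6kc1 had 2 and 3, and Hey2 to Hddc2 had 1 and 2.

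Hedgehog signals from the foregut reach the pSHF through the receptor Ptch1 and its co-receptors, and the study's title names this pathway. Of 19 pathway genes, 6 flank 8 deserts with 39 sites, 18 pSHF-restricted and 18 HT-restricted, or 50% pSHF (32.9 to 67.1) beside 47.3% of all deserts. Gas1, a co-receptor, had 7 pSHF-restricted and 4 HT-restricted peaks on its Tut7 side and 1 and 5 on its Dapk1 side, and the first difference, 3, was -2 at the strict limit. Shh, the ligand gene, lay by a desert with 2 and 3, whose strongest pSHF-restricted peak had fold 5.56 at 101 kb from Shh.

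Further lists were small. The 11 deserts by sarcomere and ion handling genes held 22 peaks restricted to pSHF and 18 restricted to HT, or 55% pSHF (38.5 to 70.7). The 4 by endothelial genes, Cdh5 among them, had 12 and 21, or 36.4% (20.4 to 54.9), with more HT-restricted peaks in 4 of 4. Both intervals held the 47.3% of all deserts. The counts at the strict limit were 6 and 12 for the first list and 4 and 13 for the second (23.5%, 6.81 to 49.9), beside 28.1% of all deserts.

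The 5 strongest pSHF-restricted peaks included those described above in the deserts by Mef2c, Nr2f1 and Isl1. The highest fold of the kind was 13.3, in the lncRNA gene Gm35424 between Spock3 and Sgo2b (chr8:63755161-63755648), and Tlr4 to Brinp1 followed Mef2c with fold 11.2. Among HT-restricted peaks the highest fold was 17.6, between Grm3 and Gm5861 (chr5:10196893-10197269). The next, of fold 17.5, lay 485 kb from Shox2, the homeobox gene of the sinus node (chr3:66486266-66486463). Abca13 to Vwc2 had fold 16.5, and Sema3d to Sema3a, by semaphorin genes of vessel and nerve guidance, fold 16.4. The 5 strongest HT-restricted peaks all had folds above the strongest pSHF-restricted one, though the scales of the lists were not matched.

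The strongest shared sites of both lists lay between Pex2, a peroxisome gene, and 1700008P02Rik, with fold 23.2 in pSHF and 29.2 in HT (chr3:5860518-5860863), and between LOC108168698 and Samd9l, with 16.5 and 27.8 (chr6:3201353-3201643). Eipr1 to Myt1l had 13.4 and 16.1. In Akr1e1 to Klf6 a site had fold 16.0 in pSHF and 17.5 in HT (chr13:4771430-4771886). Iqcm to Nr3c2 had 18.6 in HT and 4.31 in pSHF, and Stxbp6 to Nova1 18.6 and 6.46. Ythdf3 to Cypt12 had 19.3 in HT and 9.43 in pSHF, in the lncRNA gene Gm30340. The opposite was found between Pabpc4l and Pcdh18, with 12.9 in pSHF and 8.96 in HT. No peak was left out for lying in a repeat, and the part of repeats in these high folds was not tested.

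Most sites stood alone. Of the 6132 sites 3610 (58.9%) had no other within 10 kb, and 1086 runs of neighbouring sites had 2 or more, 254 of them 3 or more and 19 of them 5 or more. The run with most sites, picked out after its values were seen, had 10 over 25.9 kb inside Firre (chrX:50597248-50623124), an X-linked lncRNA gene that takes part in nuclear organisation. Of its sites 9 were HT-restricted, 0 pSHF-restricted and 1 shared, and the folds ran from 4.16 to 5.70, low beside those of the promoter printed above. The difference for the whole desert between Olfr1324 and Stk26 was -9, and it was -4 at the strict limit.

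The next run had 8 sites at Gm3716 (chr5:64580044-64611095), 2 pSHF-restricted, 3 HT-restricted and 3 shared. Its highest fold was that of the Gm3716 promoter. A run of 6 sites at the start of chromosome 9, ahead of Alkbh8, held shared sites only, with folds of 4.60 to 18.1 (chr9:3018272-3036199). Below 3.3 Mb of this chromosome lay 11 pSHF and 10 HT desert peaks, and the part of repeats in them was not tested. These runs were thus mostly or wholly HT-restricted in Firre and Meis1 to Spred2, shared on chromosome 9 and mixed at Gm3716. The run with most pSHF-restricted sites, between Cd83 and Jarid2, held 4 of them with 1 HT-restricted and 1 shared site.

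Non-coding genes covered part of the desert sites. Of restricted desert peaks 21.3% in pSHF and 20.5% in HT had the summit inside a non-coding gene, and of shared ones 25.4% and 25.6%. The same share was 12.4% and 12.1% over the whole lists. It was 22.6% and 21.9% for peaks between genes within 100 kb, so the desert values were close to those of other intergenic peaks. The summit was within 1 kb of an end of such a gene for 7.06% (6.04 to 8.18) of pSHF-restricted and 9.70% (8.17 to 11.4) of shared pSHF desert peaks. In HT these shares were 5.08% (4.26 to 6.01) and 10.3% (8.69 to 12.1), so in both lists shared sites lay by these gene ends more often, with intervals that did not overlap in HT only. Over the whole lists the shares were 7.38% of restricted and 12.9% of shared peaks in pSHF, and 6.34% and 12.6% in HT.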

How the data were processed

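ATAC-seq was run on 3 pSHF and 3 HT samples. The build was mm10, and MACS2 2.1.1, Bowtie2 2.3.2, Picard and SAMtools 1.5 were named, both per the submitters' processing notes. Their settings, and any pooling of samples before peak calling, are not given in the sources used. The authors deposited 1 peak list per tissue with a score, the fold enrichment as a ratio, the −log10 p-value, the −log10 q-value and the summit offset. The score was used for checks only, and the p-value also to recover the number of reads that overlapped at each summit.

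Lines with equal chromosome, start and end were merged into 1 peak with the summit of highest fold, which took 58887 lines to 44018 peaks in pSHF and 60223 to 49267 in HT. Read totals are unknown, and no peak was left out here for lying in a repeat or a region of high signal. The pileup at each summit was recovered from the deposited fold and −log10 p-value and matched within 0.01 (log10) at 100% of summits. The background pileup was 0.857 in pSHF and 0.824 in HT, and the lowest deposited −log10 q was 1.3013 and 1.30685.

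Genes were the 21627 protein-coding genes of a RefSeq table (GRCm38.p6). A desert is the gap between neighbouring gene bodies less 100 kb at each side. Printed desert coordinates are those of the whole gap, and counts and sites per Mb are those of the part left. Named were the 12 deserts with most sites, the 6 with the largest excess of each kind, those flanked by second heart field, Hedgehog or cardiac factor genes with at least 5 sites, of which 3 are not reported here, and the 5 peaks of highest fold of each kind. The desert members and gene lists were chosen with earlier results of these data known. The deserts of Firre, Gm3716 and Mir99ahg, the runs, the promoters and the miRNAs were added after values were seen. A planned motif search around summits needed a genome sequence, which was not used here, and promoter windows were searched instead. Alternatives were a −log10 q of at least 5, 50% reciprocal overlap, distances of 50 and 200 kb, every gene of the annotation, the middle of the peak and the summit of highest −log10 q. Scripts used Python 3.11.15, pandas 2.3.3, NumPy 2.4.6, SciPy 1.17.1 and matplotlib 3.10.9, and were tested on simulated data.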

Additional observations from a re-analysis of the deposited data

How the results depend on the processing

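No paired analysis was possible because each tissue has 1 peak list and no column per replicate, and for the same reason no replicate could be left out. Using the middle of the peak or the summit of highest −log10 q moved no count of desert peaks by more than 1. With both lists at a −log10 q of at least 5 there were 957 pSHF and 1854 HT desert peaks, of which 576 (60.2%) and 1475 (79.6%) were restricted, beside 20.5% and 47.7% of the whole lists. These counts include peaks that were shared before their partner was dropped. Desert peaks at that limit against the whole other list, a setting chosen after seeing the data, gave 417 (43.6%) and 1083 (58.4%), beside 11.7% and 30.7%. At 50 kb there were 5686 and 6131 desert peaks, with 3894 HT-restricted and shares of 59.6% and 63.5%. At 200 kb there were 1858 and 2069, with 1216 (65.4%) and 1437 (69.5%) restricted. Counting every gene of the annotation left 472 and 595, with 322 (68.2%) and 450 (75.6%) restricted. An overlap of 50% of both peaks gave shares of 78.9% and 80.1%, beside 54.6% and 59.4%. The whole-list shares were unchanged at 34.4% and 45.5% under the other settings.

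Of the 50 named deserts, 48 had a difference other than 0. The direction was the same in 32 at a −log10 q of at least 5 in both lists and opposite in 13, with pSHF minus HT differences of -1 for Adamts16 to Irx1, Osr1 to Nt5c1b, Ttc32 to Osr1 and Zfp608 to Gramd3, -2 for Isl1 to Parp8, Itga1 to Isl1, Lcorl to Slit2, Nr2f1 to Arrdc3 and Tut7 to Gas1, -4 for Cd83 to Jarid2, Kif2a to Zswim6 and Slc10a2 to Efnb2, and -6 for Bcl11a to Fancl. Against the whole other list it was opposite in 8, with -1 for Isl1 to Parp8, Kif2a to Zswim6, Lcorl to Slit2 and Zfp608 to Gramd3, -2 for Bcl11a to Fancl and Tut7 to Gas1, -4 for Cd83 to Jarid2 and -5 for Slc10a2 to Efnb2. At 50 kb it was opposite in 3, with -1 for Cep162 to Tbx18 and Zfp608 to Gramd3 and 1 for Gas1 to Dapk1. At 200 kb it was the same in 35, 0 there or as reported in 13 and opposite in 2, with 1 for Gm44812 to Mctp2 and Myc to Gsdmc. The gaps of Irf8 to Foxf1, Tbx20 to Herpud2 and Tut7 to Gas1 are 328, 334 and 351 kb long. They are too short to hold a peak at that distance from both genes, so their value of 0 was fixed by length. With every gene the direction was the same in 18, 0 there or as reported in 31, Fermt1 to Bmp2, Enc1 to Arhgef28 and Akr1e1 to Klf6 among them, and opposite in 1, with 2 for Myc to Gsdmc. The cause of these changes was not tested. At a −log10 q of at least 5, 26.3% of pSHF and 48.0% of HT desert peaks were left, beside 46.5% and 60.5% of the lists.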
